A study of Rattus norvegicus with 26 samples.

Results

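Primary vascular smooth muscle cells (SMCs) were compared with progenitor cells at the end of an SMC differentiation, to see which smooth muscle genes Day 6 cells still lacked and which genes of other lineages they carried. The comparison took 5 of the 26 arrays of the series, chosen by the group in their labels: 2 arrays of primary SMC RNA and 3 arrays of clone Cl19 on Day 6 (d6). Cl19 is 1 clone of rat multipotent adult progenitor cells (rMAPCs), Oct4-expressing stem cells grown from the bone marrow of 3-week-old female Fischer rats. Its cells had been in basal medium with TGFβ1 and PDGF-BB, without serum, for 6 days. Triplicate cultures of the same clone on Day 0 (d0), before the growth factors, are given beside them as a baseline. The primary SMC RNA was purchased: the labels call it rat aortic RNA and the methods of the study RNA of primary SMCs. A figure legend of the study describes it as coming from rat aortic SMCs in culture, so it need not represent SMCs of an intact vessel. Strain, age and sex are not given. Its 2 arrays may be repeats of a single RNA, whereas the methods call the triplicates biological replicates. The median standard deviation (SD) of a probe was 0.08 log2 units in primary SMCs and 0.31 on d6. The tests pool 1 spread over all 9 groups. That spread comes mostly from the rMAPC cultures and may hold none between primary SMC preparations.

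Mature SMCs are known for 2 sets of genes. The first encodes the contractile apparatus (smooth muscle actins and myosin, calponin, transgelin, smoothelin). Many of its members are switched on by serum response factor (SRF) with its coactivators myocardin and the MRTFs, which act through a DNA element called the CArG box. The second makes an aortic SMC a matrix-producing, signal-sensing vessel cell: elastin and fibrillar collagens, the PDGF receptor β, receptors for angiotensin, vasopressin and catecholamines, and the mesodermal transcription factors under which the vessel wall forms. TGFβ is a known inducer of the first set in many progenitor cells. Epithelial cells are known for the opposite equipment, E-cadherin junctions, desmosomes, tight junctions and keratins, and the transcriptional repressors Zeb1, Zeb2, Snai1 and Snai2 are known to shut these genes off.

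Every value below is the log2 of the Cy3 intensity of an oligonucleotide probe after quantile normalization, called its signal. A difference is primary SMC minus d6, and errors of differences are standard errors (SE) from the limma fit. A gene is represented by its brightest tested probe. It was called when the adjusted p was under 0.05 and the difference at least 2 log2 units, because the groups were on different slides and were scanned in different sessions. Of 12271 genes tested, 1684 (13.7%) were called higher in primary SMCs and 2379 (19.4%) lower. The median difference over all of them was -0.17. These values are the baseline for each list count below. The adjusted p alone would call 31.4% higher and 40.0% lower. Over the 24442 probes the shares were 15.7% and 20.1%, and 32.8% and 38.6% by the adjusted p alone. The primary SMC arrays were dimmer: 43.6 and 44.5% of their features were well above background, compared with 54.1, 61.4 and 58.7% on d6. The median log2 intensity before normalization was 1.62 and 1.85 compared with 3.31, 3.99 and 3.69. The share of called probes that were higher in primary SMCs was 43.8%, and it was 56.4% with scaling to the 75th percentile, 56.9% with a floor at the lowest signal well above background and 7.2% without any normalization between arrays. Slide and scanning session cannot be told apart from the groups. Within groups the arrays correlated at 0.979 to 0.985, and between groups at 0.730 to 0.736 over all tested probes.

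Of the classical markers of the contractile apparatus, Tagln and Cnn1 were close to their primary SMC signals on d6, while other contractile genes given below were not. Tagln, which encodes the actin-binding protein transgelin (SM22α), had signals of 15.93, 15.98 and 15.64 on d6 and 16.29 and 16.25 in primary SMCs, and Cnn1, the actin-binding calponin 1, had 11.55, 11.14 and 11.48 and 11.81 and 11.80. Both genes stood just below primary SMCs on all 3 d6 arrays, by 0.42 ± 0.37 and 0.41 ± 0.21 log2 units, which did not pass the test (adjusted p = 0.323 and 0.0871), whereas on d0 their mean signals had been 9.31 and 7.83. Without normalization between arrays the signs turned, to -0.21 for Tagln, -1.51 for Cnn1 and -0.67 for Smtn. Smoothelin (Smtn), a cytoskeletal protein of contractile SMCs, read 12.42, 12.49 and 12.77 on d6 and 13.52 and 13.49 in primary SMCs. Its difference, 0.95 ± 0.26 (adjusted p = 0.00342), was under the 2 log2 units required for a call. Smarcd3, encoding the chromatin remodelling subunit BAF60c, was the marker that was called. It read 12.26, 11.48 and 12.19 on d6 and 14.62 and 14.65 in primary SMCs, a difference of 2.66 ± 0.53 (adjusted p = 1.80e-04), after a d0 mean of 5.85. Myh11 and Acta2 were not analysed here.

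Among the 40 contractile and cytoskeletal genes tested, 11 were higher in primary SMCs, 2 were lower and 27 were not called, with a median difference of 0.49, beside 13.7% higher, 19.4% lower and a median of -0.17 over all genes. The same list gave 9 higher and 12 lower without normalization between arrays, and 17 and 1 with scaling to the 75th percentile. With a floor at the lowest signal well above background it gave 11 and 1. The genes within 2 log2 units of primary SMCs included the most abundant ones, such as the myosin light chain Myl9 (15.42 on d6, 16.64 in primary SMCs), the tropomyosin Tpm1 (15.10 and 15.04, with 1 of its 4 probes called higher) and the LIM protein Csrp1 (14.58 and 14.39). The differences of Tpm1, Csrp1 and Pdlim3 turned sign with scaling to the 75th percentile. Pdlim3, a PDZ and LIM protein of the actin cytoskeleton, had gone from a mean of 2.74 on d0 to 11.28 on d6 and stood at 10.98 in primary SMCs. Other genes were called higher in primary SMCs. Actg2, the γ smooth muscle actin, read 4.53, 5.53 and 4.22 on d6, 4.46 on average on d0 and 12.03 and 11.97 in primary SMCs, a difference of 7.24 ± 0.37. The d6 arrays therefore lay at the d0 signal and far from both primary SMC arrays.

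Itga8, the integrin α8 of SMC adhesions, was well above background on no d6 array and read 6.95 and 6.88 in primary SMCs, which made it at least 31.7-fold higher there. A bound of this kind sets the primary SMC mean against the higher of the probe's own d6 value and the lowest signal that counted as well above background on each array. Pgm5, a phosphoglucomutase relative of adherens-type muscle junctions, differed by 6.58 ± 0.51, and the LIM protein Fhl1 differed by 6.32 ± 0.32. Mylk, the myosin light chain kinase that triggers contraction, was well above background on 1 of 3 d6 arrays and read 6.32 and 6.07 in primary SMCs. Lmod1, the leiomodin that nucleates smooth muscle actin filaments, had begun to move, from a d0 mean of 0.46 to 5.48, 4.50 and 5.04 on d6, and was still 4.51 ± 0.40 below primary SMCs. Integrin α1 (Itga1, 5.92 ± 0.38), synaptopodin 2 (Synpo2, 5.17 ± 0.46), Mustn1 (5.61 ± 0.39), the amine oxidase Aoc3 (4.11 ± 0.55) and Ppp1r14a, the inhibitor of myosin phosphatase CPI-17 (3.69 ± 0.23), completed the 11. Csrp2, a second LIM protein, was lower in primary SMCs, at 13.30 and 13.27 compared with 15.98, 15.67 and 16.04 on d6. So was the phosphatase subunit Ppp1r12b, well above background on no primary SMC array. Its bound (at least 1.75-fold) was under the 2 log2 units of a call.

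**Figure D1:**
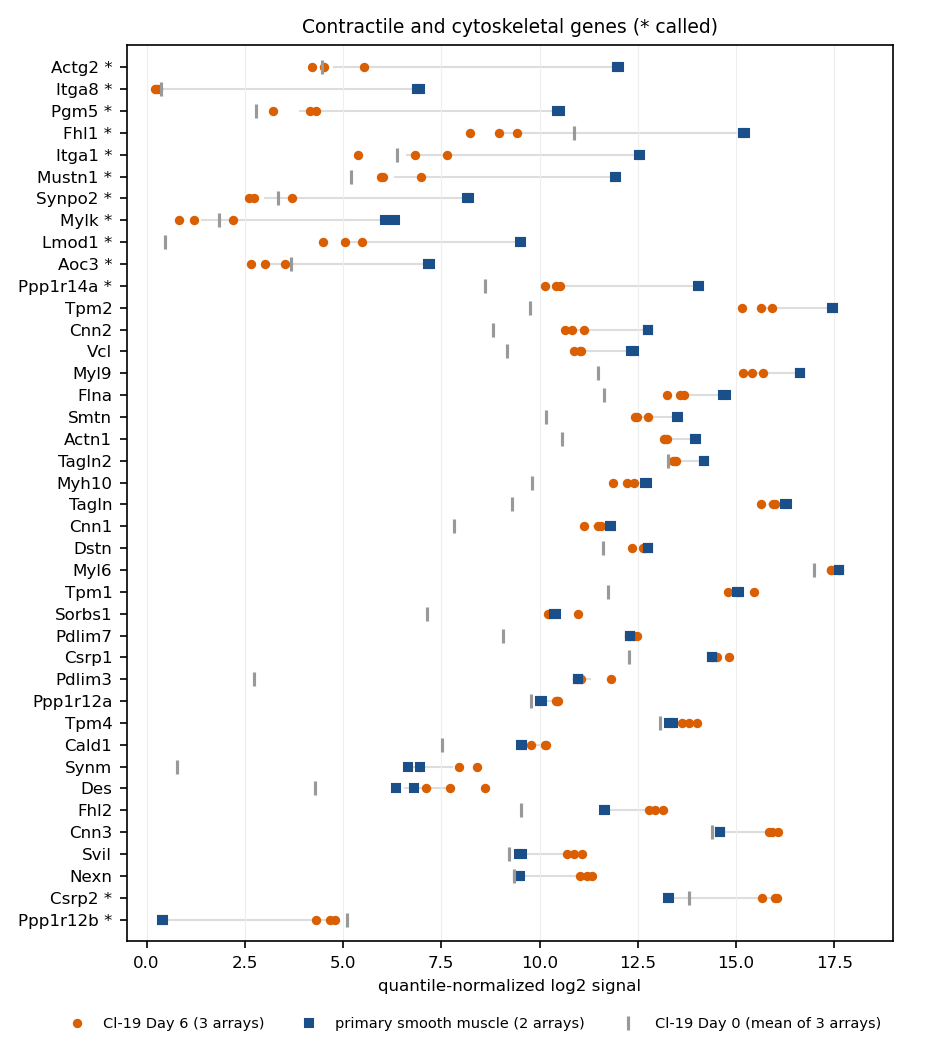
Quantile-normalized log2 signal of each of the 40 contractile and cytoskeletal genes tested: orange circles are the 3 Cl19 d6 arrays, blue squares the 2 primary SMC arrays, the grey tick the d0 mean and the grey line joins the group means. Genes are ordered by the difference, asterisks mark the 13 called genes, and the middle of the plot holds genes such as Tagln and Cnn1 whose d6 signals lie next to primary SMCs and far from d0.

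The CArG box was looked for on both strands in RefSeq promoters (assembly GRCr8), from 250 bases before to 50 bases after each gene start. It was found for 4 of the 34 contractile genes that have such a promoter (11.8%). The share was 1.42% of the 9925 tested genes with a promoter, and 1.64% of all 33469 promoters. The genes were Fhl1, which was called higher in primary SMCs, and Cnn2, Fhl2 and Svil, which were not called. Fhl1 and Cnn2 are printed because 1 gene was called and the other was not, with the CArG box in capitals. RefSeq lists a second Fhl1 promoter (chrX:139645222-139645521), in which the element was not found.
Fhl1 promoter (chrX:139638246-139638545, plus strand): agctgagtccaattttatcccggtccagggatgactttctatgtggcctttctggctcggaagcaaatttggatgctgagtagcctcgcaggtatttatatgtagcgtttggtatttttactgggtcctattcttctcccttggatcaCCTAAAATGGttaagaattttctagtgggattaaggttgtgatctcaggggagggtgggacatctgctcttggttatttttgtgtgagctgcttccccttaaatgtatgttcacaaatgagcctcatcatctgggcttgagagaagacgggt
Cnn2 promoter (chr7:10370263-10370562, minus strand): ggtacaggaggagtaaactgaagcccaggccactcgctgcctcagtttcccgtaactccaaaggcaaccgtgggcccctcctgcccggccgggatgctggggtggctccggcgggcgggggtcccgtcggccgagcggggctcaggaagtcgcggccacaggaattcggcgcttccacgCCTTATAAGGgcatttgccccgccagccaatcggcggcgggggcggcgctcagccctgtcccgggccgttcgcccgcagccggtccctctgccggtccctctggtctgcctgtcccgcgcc
Fhl1 read 8.97, 8.23 and 9.43 on d6 and 15.22 and 15.18 in primary SMCs, and Cnn2, the calponin 2 gene, read 11.13, 10.65 and 10.83 and 12.76 and 12.75, a difference of 1.88 ± 0.16 that reached a call (2.01) without d6 replicate 1.

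Among the regulators of smooth muscle genes, 24 of 42 tested were higher in primary SMCs, 4 were lower and 14 were not called, with a median difference of 2.92. There were 14 higher and 11 lower without normalization between arrays, and 15 and 2 with normexp background correction. The general factor Srf read 13.93 ± 0.40 on d6 (SD, n = 3) and 12.89 ± 0.02 in primary SMCs (SD, n = 2), and its coactivator Mrtfa read 13.47 ± 0.15 and 14.01 ± 0.00, neither of them called. Myocd, the smooth and cardiac muscle coactivator myocardin, read 2.46, 1.92 and 1.39 on d6, well above background on 1 array, and 7.18 and 6.89 in primary SMCs, a difference of 5.12 ± 0.35. Its d0 mean was 1.88, so the d6 signal lay at the d0 signal.

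Mesodermal and mural cell transcription factors made up most of the rest. Foxs1, a forkhead factor of perivascular cells, was well above background on no d6 array and read 13.63 and 13.61 in primary SMCs, at least 3294-fold higher. The homeobox factor Prrx1 (at least 242-fold), the T-box factor Tbx18 (at least 310.5-fold), the nuclear receptor Nr2f1 (at least 140.4-fold) and Meox2 (at least 21.5-fold) were also well above background on each primary SMC array and on no d6 array. Foxc1 belonged to the same group but had been present earlier: its mean was 8.59 on d0, it read 1.82, 1.70 and 1.49 on d6, well above background on no array, and it read 10.40 and 10.27 in primary SMCs, at least 325-fold above d6. Its paralog Foxc2 was present on d6 at 6.47, 6.86 and 6.48 and higher in primary SMCs, at 10.69 and 10.61. Twist1 (4.79 ± 0.47), Hand2 (4.56 ± 0.90) and Tbx2 (8.26 ± 0.35) were higher in primary SMCs as well, with d6 signals above background on 3, 1 and 1 arrays.

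Several members of the Notch pathway, through which endothelium instructs SMCs, were lower on d6. The target genes Hey2 (5.47 ± 0.35) and Hey1 (3.11 ± 0.66), the ligand Jag1 (3.37 ± 0.57) and the receptor Notch3 (2.23 ± 0.19) were each called higher in primary SMCs. Of the epithelial gene repressors, Snai1 read 8.78 on d6 and 9.37 in primary SMCs and was not called. Zeb1, called higher, read 3.03, 3.02 and 2.96 and 9.29 and 9.30, while Zeb2 (at least 16.3-fold) and Snai2 (at least 5.95-fold) were well above background in primary SMCs only. The regulators lower in primary SMCs included Klf5, Foxf1 and Tead2. Klf5 read 11.28, 11.69 and 11.11 on d6 and 4.84 and 3.83 in primary SMCs. Foxf1 and Tead2 differed by -2.27 ± 0.58 and -2.22 ± 0.66.

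**Figure D2:**
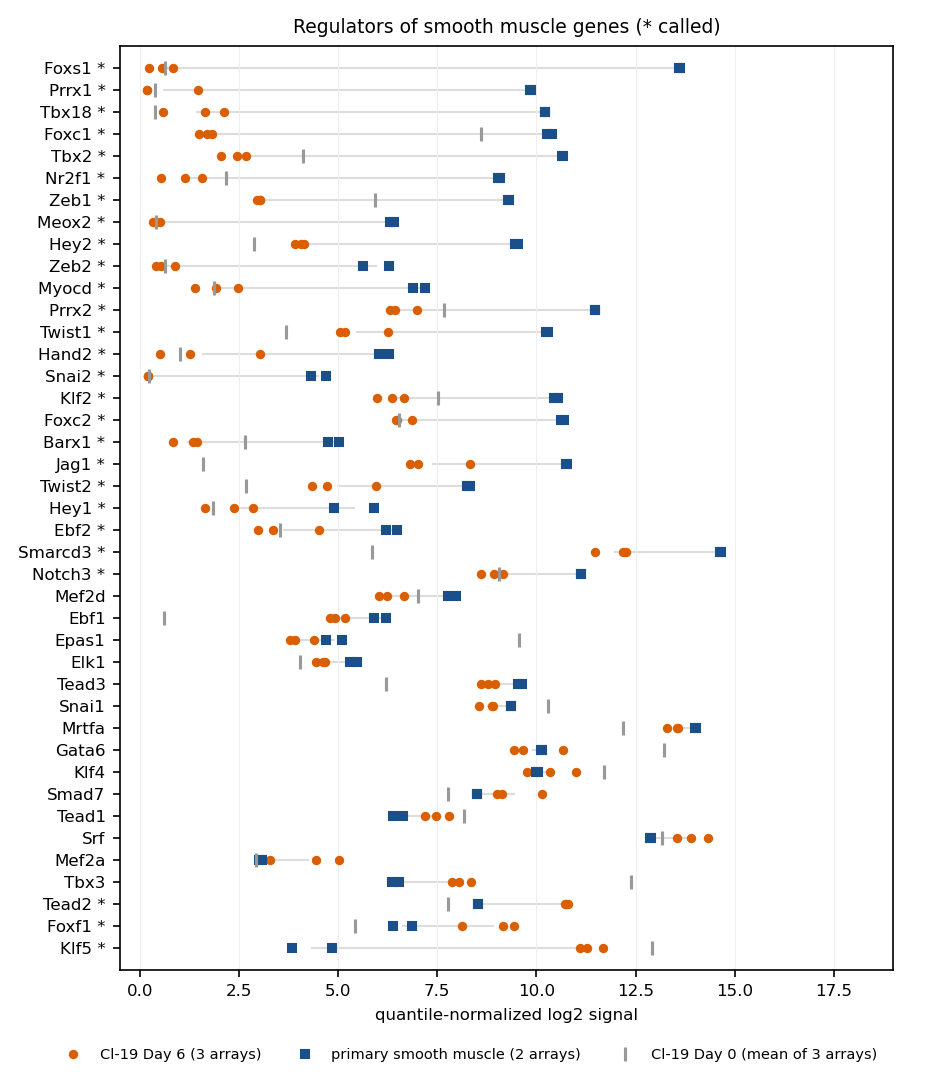
Quantile-normalized log2 signal of 41 of the 42 tested regulators of smooth muscle genes, with orange circles for the 3 Cl19 d6 arrays, blue squares for the 2 primary SMC arrays, grey ticks for d0 means and grey lines joining the group means. Asterisks mark the 27 called genes among them. Foxs1, Prrx1 and Zeb2 have d6 signals under 2 and primary SMC signals above 5, while the groups lie close together for Srf and Mrtfa.

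Receptors and channels are the means by which a vessel cell senses its surroundings. Of 68 with a probe, 45 were tested. The others, such as Kcnma1, Cacna1c and Rgs5, were well above background throughout no group, primary SMCs included. Of the 45, 20 were higher in primary SMCs and 7 lower, with a median of 1.77. Without normalization between arrays there were 13 and 14, and with a floor at the lowest signal well above background 20 and 4. The vasopressin receptor Avpr1a (at least 303-fold), the α1D adrenergic receptor Adra1d (at least 351-fold), the natriuretic peptide clearance receptor Npr3 (at least 290.2-fold), the ATP-sensitive potassium channel subunit Kcnj8 (at least 121-fold) and the BK channel subunit Kcnmb1 (at least 37-fold) were well above background on each primary SMC array and on no d6 array. Agtr1a, the angiotensin II receptor, had begun to appear, from a d0 mean of 0.63 to 5.03, 4.72 and 3.07 on d6, and read 11.96 and 11.95 in primary SMCs (7.68 ± 0.42). The subunits of the nitric oxide receptor, Gucy1a1 (6.11 ± 0.52) and Gucy1b1 (5.98 ± 0.45), were each well above background on 1 of 3 d6 arrays. Adra1b, the α1B adrenergic receptor, was present on d6 at 7.95, 6.53 and 6.83 and was not called (1.12 ± 0.71). Day 6 cells carried other receptors in turn: the protease-activated receptor F2rl1 read 11.47, 10.97 and 11.04 on d6 and was at least 168-fold lower in primary SMCs. The endothelin B receptor Ednrb was at least 1.89-fold lower. The signalling genes Rgs16 (at least 3.17-fold) and Rock2 (at least 5.8-fold) were lower in primary SMCs too. The bounds of Ednrb and Rgs16 were under the 2 log2 units of a call.

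Extracellular matrix genes of the vessel wall had the most positive median of the lists, 4.60, with 42 of 58 tested higher in primary SMCs and 6 lower. Mgp, the matrix Gla protein that keeps arteries from calcifying, read 1.79, 2.19 and 1.93 on d6, well above background on 1 array, and 16.66 and 16.66 in primary SMCs (14.69 ± 0.39). Col3a1, the collagen III chain, was well above background on no d6 array and read 15.20 and 15.14 in primary SMCs, at least 9165-fold higher. Elastin (Eln) read 2.46, 1.82 and 2.92 and 13.38 and 13.35, and lysyl oxidase (Lox), which cross-links elastin and collagen, read 0.17, 2.37 and 0.18 and 11.07 and 11.10. Neither was called between d6 and d0, where Eln had a mean of 3.10 and Lox of 0.33.

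The collagen I chains did not move together. Col1a1 had risen to 13.00, 13.74 and 13.04 on d6 from a d0 mean of 6.00 and was 2.73 ± 0.65 below primary SMCs. Col1a2, whose chain is needed for the usual collagen I trimer, read 4.66, 5.18 and 4.10 on d6 and 15.03 and 15.25 in primary SMCs (10.49 ± 0.46). Fibronectin (Fn1, 14.33 on d6 and 14.86 in primary SMCs) and the collagen V chain Col5a1 (13.05 and 13.64) were near primary SMCs and not called, although Col5a2, the partner of Col5a1, differed by 9.40 ± 0.61. The collagen VI chain Col6a1 (11.24 ± 0.39) and the collagen VIII chain Col8a1 (11.13 ± 0.68) were each well above background on 1 of 3 d6 arrays. The matrix genes lower in primary SMCs that had the highest d6 signals were the hyaluronan synthase Has2 (10.83, 11.21 and 11.02; at least 152-fold lower), the Wnt antagonist Sfrp1 (11.57, 10.62 and 12.27; at least 209.9-fold lower) and spondin 2 (Spon2, 13.03, 13.19 and 13.40 compared with 6.53 and 6.02). The elastic fibre protein Fbln1 was lower as well (-4.23 ± 0.37).

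Mesenchymal receptors and growth factor genes followed, with 29 of 56 higher in primary SMCs, 9 lower and a median of 2.33. There were 24 higher and 17 lower without normalization between arrays, and 29 and 6 with a floor on dim values. Pdgfrb, a receptor for the PDGF-BB of the medium, was well above background on no d6 array. It read 13.77 and 13.71 in primary SMCs, at least 3586-fold higher. The related receptor Pdgfra was present in both, at 10.19, 10.39 and 10.66 on d6 and 9.21 and 9.28 in primary SMCs, and was not called (-1.17 ± 0.17). Vcam1, an adhesion molecule of activated vessel cells, read 0.22, 1.62 and 0.20 on d6 and 12.60 and 12.61 in primary SMCs. The chemokine Cxcl12 read 1.13, 2.33 and 3.48 and 13.34 and 13.28. Cspg4 (the pericyte proteoglycan NG2, 9.22 ± 0.68), the cadherin Cdh13 (9.79 ± 0.41), the lymphangiogenic factor Vegfc (9.48 ± 0.66) and the caveolin Cav1 (7.84 ± 0.45) were higher as well. Mcam (9.31 on d6 and 9.82 in primary SMCs) and the TGFβ target Ccn2 (16.46 and 16.59) were not called. The growth factor Igf2 (7.16, 8.09 and 7.56 on d6, at least 14.2-fold lower in primary SMCs) and the TGFβ-induced matrix protein Tgfbi (-6.15 ± 0.96) were Day 6 genes. So was the binding protein Igfbp5 by its brightest probe (-4.60 ± 1.03), with the other probe not called. The growth factor Wnt2b was called lower in primary SMCs too, but its bound (at least 2.16-fold) was under the 2 log2 units of a call.

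Position along the body axis is recorded in SMCs by Hox genes. Of 18 tested, 11 were higher in primary SMCs and 3 lower, beside 13.7% and 19.4% of all genes. The counts were 7 and 4 without normalization between arrays and 4 and 1 with normexp. The higher ones came mostly from the anterior and middle parts of the clusters, such as Hoxa4 (at least 163-fold), Hoxb2 (6.95 ± 0.52) and Hoxa7 (5.56 ± 0.42), with the posterior Hoxd9 (at least 36.1-fold) and Hoxd13 (at least 9.65-fold) as exceptions. The 3 lower ones, Hoxc9 (-4.78 ± 0.29), Hoxc11 (at least 4.32-fold) and Hoxc12 (at least 13.6-fold), all lie in the HoxC cluster, of which Hoxc6 was higher in primary SMCs (3.80 ± 0.68). Hoxc10 and Hoxc13 of this cluster were tested as well. The share of lower Hox genes did not exceed that of all genes.

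Over the whole array, the genes furthest above d6 among those well above background on all 5 arrays were led by S100a4, a calcium-binding protein of motile mesenchymal cells, whose probe read 4.04, 5.89 and 4.60 on d6 and 16.63 and 16.71 in primary SMCs (11.82 ± 0.79). Col1a2 (11.31 ± 0.44 for its most different probe), the extracellular superoxide dismutase Sod3 (10.70 ± 0.63), the water channel Aqp1 (9.93 ± 0.45), C1qtnf6 (9.77 ± 0.40), Olfml2b (9.73 ± 0.51) and the syndecan Sdc2 (9.21 ± 0.57) came after it, together with Vegfc, Col5a2 and Cspg4. In the opposite direction stood Rhox5, a homeobox gene of extraembryonic tissues and the germline, at 15.29, 15.10 and 15.27 on d6 and 5.61 and 5.71 in primary SMCs. It was followed by Smim22 (-8.77 ± 0.46), the growth factor midkine (Mdk, -8.60 ± 0.21), Apoe (-8.59 ± 0.12), Atp9b (-8.52 ± 0.23), Sfnl1 (-8.36 ± 0.48), the surface protein Cd24 (-8.19 ± 0.59), the organizer homeobox gene Gsc (-8.17 ± 1.17) and the keratins Krt18 and Krt8. Gsc read 13.55, 12.94 and 14.03 on d6.

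Genes well above background in a single group were unevenly divided. At gene level, 198 of 12271 (1.61%) were well above background on each primary SMC array and no d6 array, and 1887 (15.4%) on all d6 arrays and no primary SMC array, beside the lower share of features above background on the primary SMC arrays. The largest bounds on the primary SMC side belonged to Plac9 (at least 14314-fold), the matricellular proteins Ccn3 (at least 11942-fold) and Ccn5 (at least 4748-fold), and osteopontin (Spp1, at least 3759-fold). With them were Osr1 (at least 2264-fold), the complement protease C1r (at least 950.1-fold), Col3a1, Pdgfrb and Foxs1. A probe of Cav3 is in this group too, although the brightest probe of Cav3 was well above background on all d6 arrays. On the d6 side were Lefty2 (at least 4272-fold), podocalyxin (Podxl, at least 3328-fold), the retinoic acid-degrading Cyp26a1 (at least 3169-fold), the chitinase Chia (at least 2352-fold), Nxf7 (at least 2186-fold) and Bex1 (at least 1880.0-fold). The homeobox gene Otx2 (at least 1636-fold), the claudins Cldn4 (at least 1602-fold) and Cldn7 (at least 1592-fold) and the neuronal pentraxin Nptx2 (at least 1398-fold) completed them.

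**Figure D3:**
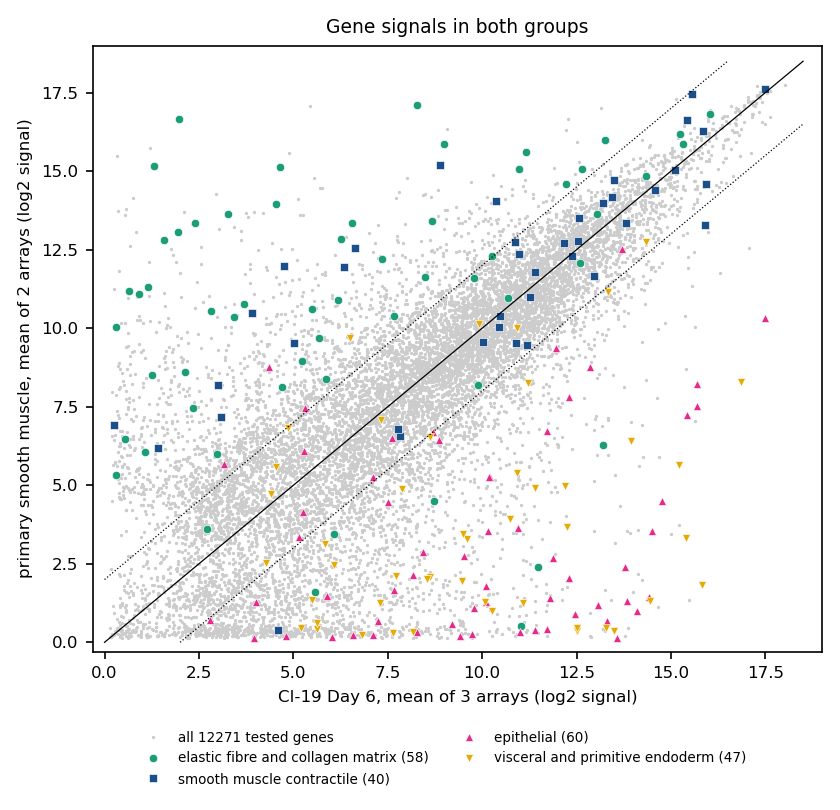
Mean log2 signal of each of the 12271 tested genes on d6 (3 arrays, horizontal axis) against primary SMCs (2 arrays, vertical axis), with the solid line at equal signals and dotted lines 2 log2 units away. Contractile genes (blue squares) crowd along the line at high signals with a branch above it, matrix genes (green circles) lie mostly above, and epithelial (pink) and visceral or primitive endoderm genes (yellow) lie mostly below, many of them near 0 in primary SMCs.

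Epithelial genes were the largest group present on d6 and low in primary SMCs. Of 60 epithelial genes tested, 51 were lower in primary SMCs and 3 higher, against the 19.4% and 13.7% of all genes, with a median difference of -6.69. On the 3 d6 arrays, 60 were well above background (90.8% of all genes were), and 38 were well above background on no primary SMC array. E-cadherin (Cdh1) read 13.31, 13.71 and 13.71 on d6, and 0.15 and 0.15 in primary SMCs, where it was at least 894-fold lower. The adhesion molecule Epcam read 14.08, 14.06 and 14.13 (at least 1275-fold lower) and the tight junction claudin Cldn7 14.66, 14.26 and 14.31 (at least 1592-fold). The desmosomal protein desmoplakin (Dsp) read 13.49, 13.95 and 14.07 (at least 1071-fold) and the polarity protein Crb3 13.27, 13.30 and 13.31 (at least 736-fold). The d6 triplicates were alike in each of them and no d6 array came near a primary SMC array.

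Some epithelial genes were not absent from primary SMCs. Krt18 read 17.47, 17.50 and 17.50 on d6 and 10.28 and 10.37 in primary SMCs. Krt8 read 15.54, 15.68 and 15.81 and 7.55 and 7.46, and Krt7 read 15.45, 16.01 and 15.59 and 8.19 and 8.24. All 3 keratins exceeded background clearly on each of the 5 arrays. The 3 genes higher in primary SMCs were the claudin Cldn9 (4.40 ± 0.48), the cadherin family member Cdhr5 (2.53 ± 0.59) and the plakophilin Pkp1 (2.16 ± 0.46, and not called at 1.87 without d6 replicate 3). Beside the comparison with d0, which shares the d6 arrays, 34 of the 60 genes were called higher on d6 than on d0 (11.2% of all genes were) and 0 lower. Cldn4, for instance, went from a d0 mean of 7.69 to 14.51, and Krt7 from 4.75 to 15.68. In primary SMCs, N-cadherin (Cdh2) was well above background on no array, and vimentin (Vim), the intermediate filament of mesenchymal cells, read 16.35 and 16.27 compared with 11.41, 13.08 and 12.21 on d6.

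Zeb and Snail repressors are known to bind the E-box letters CACCTG and CAGGTG, which are the same site read on either strand. These letters were found in the promoters (the same RefSeq windows) of 28 of the 35 tested epithelial genes that have one (80.0%), and of 25 of the 31 called lower in primary SMCs. The share was 18.8% over all promoters, 19.4% over the 9925 tested genes with a promoter, 21.1% over the matrix list and 11.8% over the contractile list. The promoters of Epcam, Cldn7 and Crb3 are printed because these genes were among the most different, with the E-box letters in capitals.
Epcam promoter (chr6:12649629-12649928, minus strand): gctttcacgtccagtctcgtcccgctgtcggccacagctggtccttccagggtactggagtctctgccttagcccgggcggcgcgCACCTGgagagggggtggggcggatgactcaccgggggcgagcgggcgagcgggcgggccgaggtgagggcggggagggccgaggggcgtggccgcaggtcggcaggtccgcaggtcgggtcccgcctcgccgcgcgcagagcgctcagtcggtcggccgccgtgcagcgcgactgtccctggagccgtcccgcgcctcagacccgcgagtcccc
Cldn7 promoter (chr10:55188420-55188719, plus strand): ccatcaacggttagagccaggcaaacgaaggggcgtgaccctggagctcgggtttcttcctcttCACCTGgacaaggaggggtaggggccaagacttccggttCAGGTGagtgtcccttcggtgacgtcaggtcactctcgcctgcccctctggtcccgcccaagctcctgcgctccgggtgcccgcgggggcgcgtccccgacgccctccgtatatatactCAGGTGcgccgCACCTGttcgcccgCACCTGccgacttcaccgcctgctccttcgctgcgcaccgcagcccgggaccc
Crb3 promoter (chr9:1987504-1987803, plus strand): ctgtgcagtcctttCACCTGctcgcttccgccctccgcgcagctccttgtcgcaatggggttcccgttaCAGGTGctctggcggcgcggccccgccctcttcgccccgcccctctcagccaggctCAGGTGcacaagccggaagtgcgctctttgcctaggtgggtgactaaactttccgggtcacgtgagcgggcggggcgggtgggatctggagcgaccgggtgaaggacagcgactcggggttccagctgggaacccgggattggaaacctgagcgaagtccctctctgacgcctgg
Beside these sequences, Zeb1, Zeb2 and Snai2 were called higher in primary SMCs, as given above, and Snai1 was not called. Whether any of these factors occupied the promoters was not measured.

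Genes of visceral and primitive endoderm, the extraembryonic layer that lines the blastocyst cavity and nourishes the early embryo, were the other large Day 6 group. Of 47 tested, 38 were lower in primary SMCs and 1, the thrombin receptor Thbd (3.18 ± 0.52), was higher, with a median of -6.30. Over all genes 19.4% were lower and 13.7% higher. Between d6 and d0, a comparison that shares the d6 arrays, 17 of the 47 were higher on d6 and 14 lower. For all genes these shares were 11.2% and 6.71%. Lefty2, an antagonist of Nodal, read 15.63, 15.39 and 16.48 on d6 and was well above background on no primary SMC array. The head homeobox gene Otx2 (14.41, 14.02 and 14.92) and the homeobox gene Hhex (13.44, 13.05 and 13.94; at least 836-fold lower) showed the same pattern. Apob, the structural protein of lipoproteins, had a d0 mean of 1.06, read 12.76, 12.96 and 14.11 on d6 and was at least 726-fold lower in primary SMCs. Transthyretin (Ttr, at least 89.7-fold) and α-fetoprotein (Afp, at least 78.3-fold), carrier proteins of the yolk sac and fetal liver, were lower too. Apoe (16.84, 16.64 and 17.11 on d6) and Rhox5 were not called between d6 and d0, where their means were 16.97 and 15.79. The endoderm regulators did not all follow. Gata4 was at least 159.9-fold lower in primary SMCs and Foxa2 differed by -7.52 ± 0.19. Gata6, which is also a vascular SMC factor, read 9.67, 9.42 and 10.67 on d6 and 10.11 and 10.14 in primary SMCs and was not called.

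Mesendoderm genes, which mark the cells that give rise to mesoderm and endoderm, were lower in primary SMCs in 10 of 14 cases and higher in 0. Between d6 and d0, a comparison that shares the d6 arrays, 10 of the 14 were higher on d6 and 0 lower. For all genes these shares were 11.2% and 6.71%. Fgf8 (at least 248-fold), Lhx1 (at least 241-fold) and Nodal (at least 146-fold) were well above background on all d6 arrays, at 11.78, 10.60 and 12.80, 11.58, 10.87 and 12.62 and 11.14, 10.53 and 11.22, and on no primary SMC array. Sox4, a factor of many embryonic progenitors, was high in both, at 14.48 on d6 and 11.96 in primary SMCs, and was called (-2.52 ± 0.71). Of 20 pluripotency and germline genes, 14 were lower in primary SMCs and 0 higher, with 7 and 0 under normexp. Between d6 and d0, 2 of the 20 were higher on d6 and 6 lower. The RNA-binding protein Lin28a still read 13.89, 13.04 and 14.57 on d6 (-10.29 ± 0.42), and the DNA methyltransferase cofactor Dnmt3l (11.26, 11.03 and 11.96; at least 199.9-fold lower), Sall1 (at least 130.0-fold), Dppa4 (at least 37.9-fold) and Dnmt3b (-6.63 ± 0.50) were also Day 6 genes. Pou5f1, encoding Oct4, was not among them: its mean was 10.28 on d0, and on d6 it read 0.53, 2.00 and 0.85, well above background on 1 array, and it was well above background on no primary SMC array.

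Muscle genes of other types came next. Of 27 cardiac genes tested, 16 were lower in primary SMCs and 7 higher (median -2.73), with 18 lower and 2 higher without normalization between arrays and 10 and 2 with normexp. Between d6 and d0, 13 of the 27 were higher on d6 and 1 lower (11.2% and 6.71% of all genes). Day 6 cells expressed the natriuretic peptides Nppb (14.03, 14.12 and 13.40; at least 1079.9-fold lower in primary SMCs) and Nppa (10.19, 10.84 and 9.62; at least 87-fold), the slow troponin I Tnni1 (at least 713-fold) and the cardiac actin Actc1 (14.23, 14.16 and 13.36 compared with 2.71 and 4.25). The atrial myosin light chain Myl4 (-4.99 ± 0.82) and Ankrd1 (-4.67 ± 0.33) were lower in primary SMCs without being absent there. Primary SMCs in turn expressed Casq2, the calcium store protein calsequestrin 2, at 11.60 and 11.65 compared with 4.80, 4.29 and 4.52 on d6, Myoz2 (at least 58.9-fold higher), the ryanodine receptor Ryr2 (2.85 ± 0.28) and Popdc2 (3.66 ± 0.81). Among 10 skeletal muscle genes, 3 were higher in primary SMCs and 2 lower, beside 13.7% and 19.4% of all genes. There were 3 and 4 without normalization between arrays. The 3 were the fast myosin heavy chains Myh1 (well above background on no d6 array, 11.26 and 11.25 in primary SMCs, at least 641-fold) and Myh2 (1.69, 2.33 and 2.08 and 10.97 and 10.98) and the muscle caveolin Cav3 (4.37, 4.39 and 4.56 and 12.73 and 12.68). The skeletal actin Acta1 was lower, at 11.55 and 11.61 compared with 14.14, 14.63 and 13.22, and so was Mybpc1. Its mean was 2.87 on d6 and 0.23 in primary SMCs, where it was well above background on no array, and the sign turned with a floor on dim values (0.91). Probes for Myh1 and Myh2 can share sequence with other myosin heavy chains, whose genes are similar, so their identity is uncertain.

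Smaller sets of Day 6 genes came from other lineages. Beside the counts that follow, 19.4% of all genes were lower in primary SMCs and 13.7% higher. Of 28 motile cilia genes, 13 were lower in primary SMCs and 6 higher, with 18 and 1 without normalization between arrays and 3 and 1 with normexp. Foxj1, the main switch of motile cilia, read 13.99, 13.55 and 13.01 on d6 after a d0 mean of 4.69 and was at least 857-fold lower in primary SMCs. The ciliary structural genes were lower in signal, with Cfap45 at 7.98, 8.12 and 7.42 on d6 (at least 16.7-fold), the dynein chain Dnai1 at 6.59, 5.44 and 6.85 (at least 5.73-fold), and Tekt1 at 6.33, 5.74 and 5.76 (at least 4.5-fold). Tppp3 (-2.59 ± 0.40) and Mns1 (-2.57 ± 0.44) were present in both groups. The dynein gene Dnai2 (5.02 ± 1.09), Drc3 (2.89 ± 0.25), Dnaaf1 (2.73 ± 0.30) and Ropn1l (2.46 ± 0.56) went the other way. In the trophoblast list 6 of 14 were lower in primary SMCs and 3 higher (8 and 1 without normalization between arrays). They included Plet1 (at least 352-fold), Rhox9 (at least 122-fold), Plac1 (at least 36.3-fold) and the hormone secretin (Sct, -5.17 ± 0.43) on the d6 side, and Bmp4 (3.11 ± 0.42), Tfap2a (at least 6.71-fold) and Hand1 (2.84 ± 0.57) on the primary SMC side. Of 16 neural genes 8 were lower and 3 higher (9 and 0 without normalization between arrays, 2 and 0 with normexp). Nestin (Nes) was high in both (14.32 on d6 and 10.76 in primary SMCs, -3.56 ± 0.28), and Elavl4 (at least 17.2-fold), Stmn2 (at least 13.2-fold) and the neurofilaments Nefm (at least 9.39-fold) and Nefh (at least 8.99-fold) were lower in primary SMCs. Dlx2 (at least 7.14-fold), Neurog2 (3.11 ± 0.35) and Rbfox3 (2.15 ± 0.92) were higher. Rbfox3 rested on 1 array: it read 4.48 and 0.17 in primary SMCs and 0.18, 0.17 and 0.18 on d6, so that the groups overlap, and the difference was -0.01 without primary SMC replicate 1.

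**Figure D4:**
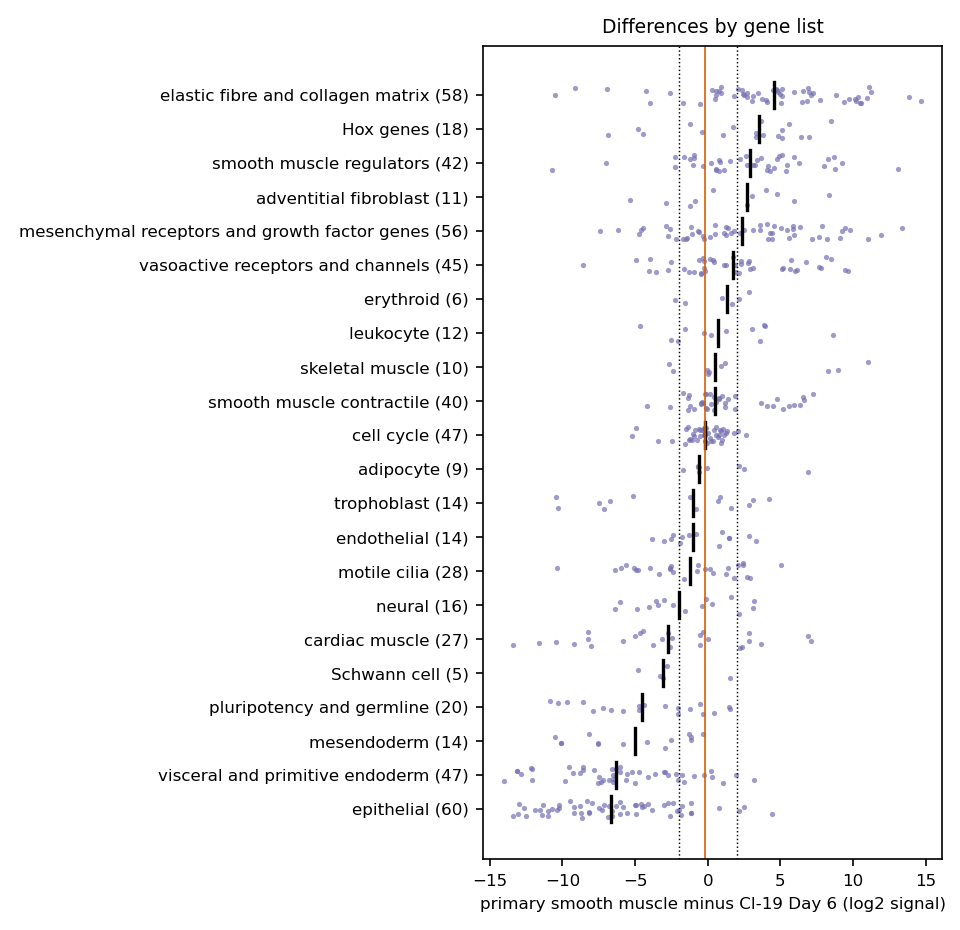
Difference in log2 signal (primary SMC minus d6) of every tested gene of the 22 gene lists, with the number tested in parentheses, black bars at list medians, the orange line at the median of all tested genes and dotted lines at 2 log2 units. Lists are ordered by median, from 4.60 for matrix genes to -6.69 for epithelial genes, and points are spread vertically only to keep them apart.

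Since the primary RNA was purchased, its identity was set against markers of the other cells of an aorta. The endothelial markers Pecam1, Kdr, Tie1, Tek and Plvap were well above background on neither primary SMC array, and Cdh5 and Vwf on 1 of 2. Vwf (-2.51 ± 0.57), Nos3 (-2.38 ± 0.48), Plvap (at least 4.12-fold) and Tie1 (-3.02 ± 0.38, 0.40 with a floor on dim values) were called lower than on d6, and Egfl7 (3.31 ± 0.20) and Sox18 (2.84 ± 0.46) higher, that is 4 lower and 2 higher, with 2 lower and 3 higher after scaling to the 75th percentile and 7 and 0 without normalization between arrays. Vwf was not called without primary SMC replicate 2 (-1.26). Over all genes 19.4% were called lower and 13.7% higher. Of 14 endothelial genes 4 were well above background on both arrays (76.3% of all genes were), namely Egfl7 (12.29 and 12.28), Flt1 (7.95 and 7.60), Sox18 (6.75 and 6.47) and Nos3 (5.11 and 5.19), and the log2 of the summed signal of the list was 12.38 to 12.42 in primary SMCs and 10.27 to 10.33 on d6. Of 12 leukocyte genes 10 were above background in this way, near the share of all genes, with 5 called higher and 3 lower than on d6 (1 and 6 without normalization between arrays) and a log2 summed signal of 11.08 to 11.10 in primary SMCs and 10.84 to 11.16 on d6. Cd74, the invariant chain of antigen presentation, read 9.46 and 9.53 in primary SMCs and was well above background on no d6 array (at least 189.5-fold). Cd14 read 9.67 and 9.63, and the pan-leukocyte marker Ptprc (CD45) read 5.24 and 4.99 compared with 0.51, 1.98 and 1.13 on d6. Tyrobp (3.08 ± 0.38) and C1qb (3.60 ± 0.65) were higher too. The macrophage lysozyme Lyz2 was well above background on neither primary SMC array, and Cd68 (-2.06 ± 0.31) and Coro1a (-2.51 ± 0.20) were lower. Cd68 was not called without d6 replicate 3 (-1.78) or primary SMC replicate 2 (-1.99). Laptm5 (6.61 in primary SMCs and 5.37 on d6), Csf1r (5.56 and 5.33) and Cd3g (5.03 and 5.30) were well above background in both groups and not called. Their part in the other differences was not tested, and in bulk RNA fewer cells of a type and less RNA per cell cannot be told apart.

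Adventitial fibroblast genes were 6 higher and 2 lower of 11 (4 and 4 without normalization between arrays), with log2 summed signals of 14.80 to 14.82 in primary SMCs and 11.59 to 12.90 on d6. Serpinf1 (8.34 ± 0.43), Mfap5 (4.74 ± 0.39), Col14a1 (at least 23.3-fold), Lum (2.72 ± 0.53), Dcn (3.03 ± 0.31) and the ferritin receptor Scara5 (at least 8.08-fold) were the 6 higher genes. Pi16 and Dpp4 were well above background on 1 and 0 primary SMC arrays. Apod was at least 4.5-fold lower in primary SMCs, and Gsn (11.91 and 11.58 on d6) and Cygb (4.48 and 5.68) were not called. Mfap5, Col14a1, Lum and Dcn are also in the matrix list. In the adipocyte list, Cidea, a lipid droplet protein of brown fat, read 10.39 and 10.44 in primary SMCs and 3.23, 3.72 and 3.54 on d6. Pck1 (2.52 ± 0.37) and Slc2a4 (2.17 ± 0.29) were also higher. Pnpla2 was at 8.50 and 8.54, and Pparg and Cfd were well above background on neither primary SMC array. The log2 summed signal of the list was 10.86 to 10.87 in primary SMCs and 8.80 to 8.89 on d6, and without normalization between arrays 1 of its genes was higher and 5 were lower. Erythroid genes, of which 0 were higher and 2 lower on that scale, were at 8.06 to 8.32 in primary SMCs and 6.98 to 7.81 on d6, with Ahsp (2.87 ± 0.41) and Tal1 (2.16 ± 0.40) higher, Epor (1.66 ± 0.36) and Klf1 (-1.54 ± 0.34) not called, and Gata1 lower (-2.25 ± 0.52). Tal1 was not called without d6 replicate 2 (1.86), Gata1 was not called without primary SMC replicate 1 (-1.55), and its sign turned with a floor on dim values (0.29). Schwann cell genes were at 8.44 to 8.48 in primary SMCs and 10.41 to 12.18 on d6. Of 5 genes, 4 were lower in primary SMCs (2 with scaling to the 75th percentile, 1 with normexp, 2 with a floor). They were led by Sox10 (10.19, 12.13 and 10.18 on d6 and 6.07 and 5.96). Mbp (at least 1.22-fold, a bound under the 2 log2 units of a call) and Mag (-2.79 ± 0.65, 0.82 with a floor on dim values) came after it. Prx (1.56 ± 0.26) was not called.

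**Figure D5:**
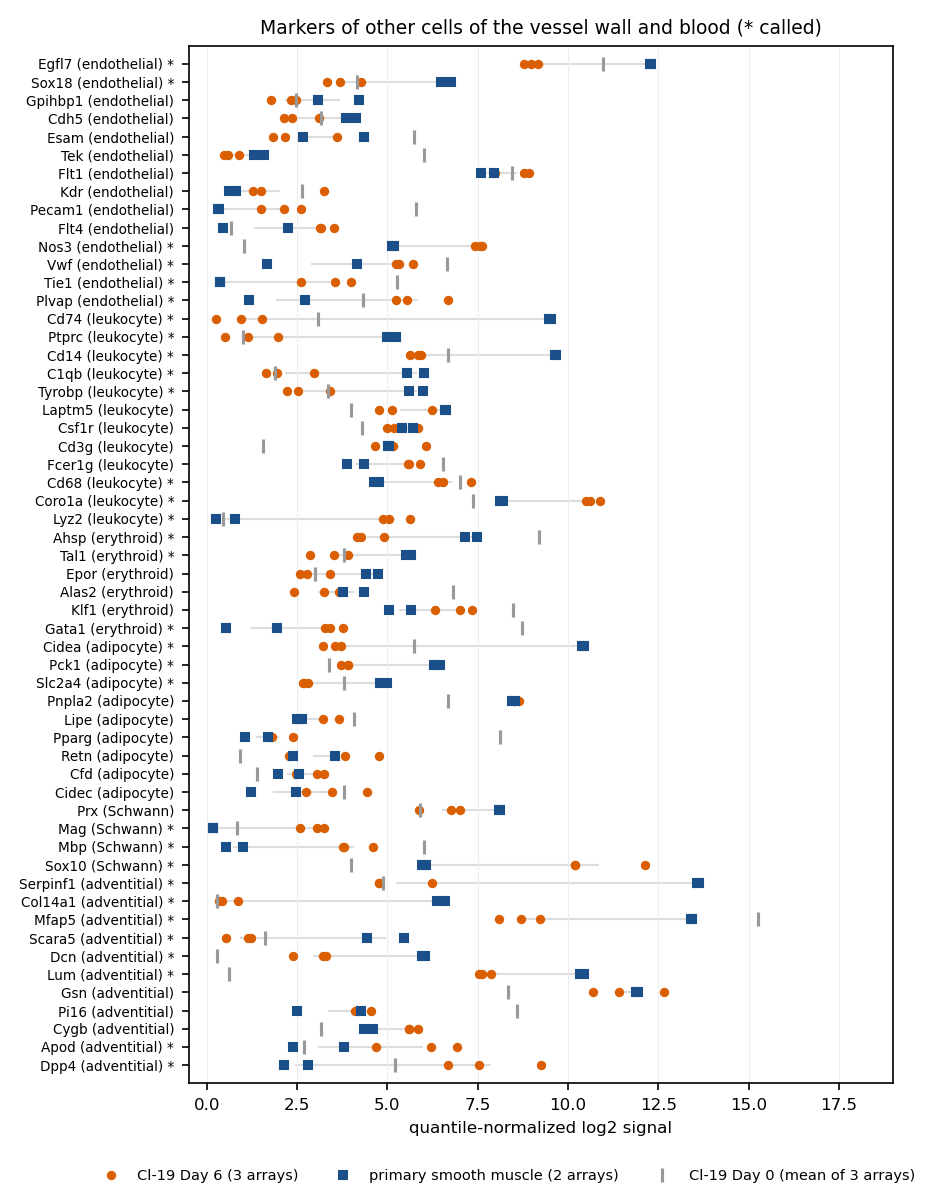
Quantile-normalized log2 signal of tested markers of endothelium, leukocytes, erythroid cells, adipocytes, Schwann cells and adventitial fibroblasts: orange circles are the 3 Cl19 d6 arrays, blue squares the 2 primary SMC arrays, grey ticks the d0 means and grey lines join the group means. Asterisks mark called genes, and in primary SMCs Pecam1, Tie1 and Plvap lie below 3 while Serpinf1, Mfap5, Cidea and Cd74 lie above 9.

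In the cell cycle list, 2 of 47 genes were higher in primary SMCs, 4 lower and 41 not called, with a median of -0.16 beside -0.17 over all genes. There were 0 higher and 30 lower without normalization between arrays, 1 and 0 with normexp, and 2 and 2 with a floor on dim values. Thymidine kinase Tk1 (2.64 ± 0.53) and the ribonucleotide reductase subunit Rrm2 (2.11 ± 0.53) were the higher genes. Rrm2 was not called without d6 replicate 1 (1.77) or d6 replicate 2 (1.64). Of the lower genes, Cenpf (at least 3.24-fold) and Kif11 (at least 2.34-fold) had bounds under the 2 log2 units of a call. The others were Ccne2 (at least 7.86-fold for its brightest probe, the other probe not called) and Chek1 (at least 4.88-fold). Beside it, 14 of the 47 genes were lower on d6 than on d0 and 0 higher (6.71% and 11.2% of all genes), in a comparison that shares the d6 arrays.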

How the data were processed

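Samples were grouped from their labels. The authors labelled each RNA with Cy3 for a 1-colour Agilent rat array and quantified the array with Feature Extraction 10.1.1.1, and they deposited a background-corrected intensity per feature, with probe positions on the assembly rn4. They also deposited a table of log2 values that equals the log2 of the scanner intensity within 5.2e-14 and therefore holds no normalization between arrays. Control features were left out, and the log2 intensities of 43379 gene features were quantile-normalized across all 26 arrays, which removes shifts shared by most genes. Features flagged as outliers were then dropped and the remaining features of a probe averaged.

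The 24442 probes that Feature Extraction marked as well above background throughout 1 group or more were tested with limma 3.58.1 (R 4.3.3) in 1 fit of 26 arrays and 9 groups, with Benjamini-Hochberg adjustment. Probe names came from the files and RefSeq symbols: 22584 of 41012 probes had a symbol and 18428 had none. No feature was saturated, and the number of arrays limits the precision. The fit was tested on simulated data with known changes.

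The groups, the gene lists and the rule for named genes were chosen with earlier results of these data known, so no count is independent support. The rule took the 5 markers given above and Acta2, the 10 largest differences and the 10 largest bounds in each direction, up to 4 called genes per list and direction, for lists of other lineages also the called genes with the highest d6 signals, and for the vessel wall and blood lists the genes marked in both primary SMC arrays. Some genes of the lists count in them but are not reported by name here. Other genes of the lists are named after their values were seen. Alternatives were 75th percentile scaling, normexp with offset 50, the unnormalized table, normalization over the 5 arrays, no filter, a floor, outlier features kept, fits on 5 or 14 arrays, slide as a random block, the replicate number as a block, each array left out, Student's t-test, other minimum differences and the mean over a gene's probes. The study names that t-test for its comparisons in general. It selected array probes in another way, by the area between a time course and its d0 value. Figures and tables were made with Python 3.11.15.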

Additional observations from a re-analysis of the deposited data

How the results depend on the processing

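At a minimum difference of 2 log2 units, 3831 probes were called higher in primary SMCs and 4911 lower. The counts were 1281 and 1366 with normexp, 1004 and 12997 in the unnormalized table, and 2876 lower with a floor. They were 6526 and 7787 at 1 log2 unit, 1940 and 2924 at 3, and 8010 and 9431 with no minimum. The offset and the floor shrink differences of dim probes by construction. Leaving out 1 array gave 3778 to 3835 higher and 4845 to 4917 lower. The replicate numbers do not pair the samples (their deviations correlated at 0.025 and 0.051), and with the replicate number as a block the counts were 3817 and 5016. With slide as a random block (correlation 0.309) they were 3823 and 4902. Student's t-test gave 3723 and 4608 at its unadjusted level and 3591 and 4350 after Benjamini-Hochberg adjustment. Chosen after seeing the data, leaving out the array labelled Cl19 d2 replicate 1, which correlated at 0.989 to 0.994 with the 3c3 d2 arrays and at 0.967 to 0.970 with the other Cl19 d2 arrays, gave 3831 and 4908, and leaving out the slide of 3c3 replicate 3 gave 3826 and 4910.

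Of 245 named genes, 38 lost their call in the unnormalized table, 68 with normexp and 13 with a floor. Signs turned in the unnormalized table for Tagln (-0.21), Cnn1 (-1.51), Smtn (-0.67), Mrtfa (-0.94), Snai1 (-1.83), Pkp1 (-0.27), Rrm2 (-0.22), Tal1 (-0.14), Adra1b (-1.33), Ccn2 (-0.55), Col5a1 (-0.995), Fn1 (-0.72), Gata6 (-2.08), Mcam (-1.85), Pou5f1 (-0.17), Csf1r (-2.06), Epor (-0.48), Gsn (-1.58), Laptm5 (-1.15) and Prx (-0.90). With 75th percentile scaling they turned for Csrp1 (0.88), Pdlim3 (0.023) and Tpm1 (1.12), with a floor for Gata1 (0.29), Mag (0.82), Mybpc1 (0.91) and Tie1 (0.40), and over all probes of the gene for Gata6 (-0.045), Srf (0.17) and Tpm1 (0.066). Pnpla2 turned to 0.024 with normexp and 0.003 with the replicate block. Leaving out 1 array turned Cd3g (-0.591 to 0.115), Gata6 (-0.042 to 0.581), Gsn (-0.119 to 0.87), Rbfox3 (-0.007 to 4.303), Tpm1 (-0.215 to 0.115) and Pnpla2 (-0.085 to 0.005). It also ended the calls of Cd68 (to -1.78), Gata1 (-1.55), Pkp1 (1.87), Rrm2 (1.64), Tal1 (1.86) and Vwf (-1.26) and made a call of Cnn2 (2.01). The cause of the other changes was not tested.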
